A study of Mus musculus with 37 samples.

Results

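The miR-378 family was followed in whole blood of C57BL/6 mice of the learning group, with small RNA sequencing libraries taken at 4 ages. Its members are mmu-miR-378a-3p, mmu-miR-378a-5p, mmu-miR-378b, mmu-miR-378c and mmu-miR-378d, written below without the species prefix, 5 of the 1915 mature microRNAs in the count table, and they were chosen by their names alone, each with 1 row. The family was, however, proposed with its age results in these libraries known, so its levels over age are given as a description. No p-value is given for a member, and the calls of the members in the fit across all microRNAs are listed only beside the share of all microRNAs called. Mice aged 12 months gave 9 libraries, those aged 13.5 months 12, those aged 15 months 5 and those aged 16.5 months 11, 37 in all. The mice were wild-type males, and no drug is named for them apart from the isoflurane used to anaesthetize them for bleeding. They were housed singly and bled from the retro-orbital sinus. The study's methods place the 12-month bleeding ahead of all behavioural work and the later bleedings after water maze training. A figure legend of the study instead places each bleeding after a water maze procedure, the first of these at 12 months. On either account training advanced with age, so age and training cannot be told apart in these libraries. The study bled its mice repeatedly, so libraries of different ages can come from the same mouse, but the labels do not say which do. The fits treat all libraries as independent, and the spread between libraries may hold technical as well as biological parts.

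miR-378a is a microRNA of energy metabolism. Its gene lies inside an intron of Ppargc1b, which encodes PGC-1β, a transcriptional coactivator that raises mitochondrial and oxidative metabolism, and the microRNA is made together with its host. miR-378a-3p is the arm of the precursor hairpin that is usually loaded into the Argonaute protein and silences target messenger RNAs, while miR-378a-5p is the opposite, usually less stable arm. The pair is known from liver, brown fat, heart and skeletal muscle. miR-378b, miR-378c and miR-378d are relatives from separate loci, named for their likeness to miR-378a-3p.

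The likeness decides how far reads can be assigned, so the mature sequences of the relatives are shown. RefSeq (GRCm38.p6) gave the sequences of 3 members, written here 5′ to 3′ with the seed (bases 2 to 8, the part that pairs with targets) in capitals. They lie at chr11:88352839-88352858 on the plus strand, chr14:46954905-46954925 on the minus strand and chr10:126710355-126710376 on the minus strand.
miR-378b: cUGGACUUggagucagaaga
miR-378c: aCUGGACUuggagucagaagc
miR-378d: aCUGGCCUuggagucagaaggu

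All 3 carry the same core. miR-378b lacks the 5′ base of miR-378c, so that its seed is UGGACUU where that of miR-378c is CUGGACU. Along the 20 bases they share in register, 19 were identical and the difference was A20C (the base of miR-378b, its position counted from 1 at the 5′ end of miR-378b, then the base of miR-378c). A run of 19 bases is common to both, and a read lying wholly within that run fits either mature sequence. The hairpin bases beside the mature sequences were not compared. miR-378d differed from miR-378c by A6C and C21G (the base of miR-378c, its position counted from 1 at its 5′ end, then the base of miR-378d), with 19 of 21 bases identical. Since A6C falls inside the seed, miR-378d has the seed CUGGCCU. None of these 3 seeds was shared with another of the 1738 mature sequences in the RefSeq table. miR-378a-3p and miR-378a-5p were not among these sequences. Whether either shares a seed or a run of bases with miR-378b, miR-378c or miR-378d was therefore not tested. The authors counted reads without mismatches against the hairpins, which separates a miR-378d read that covers the changed base from the others, but not a short read of the common run.

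The precursors are scattered over the genome (GRCm38). Mir378a lies on chromosome 18 from 61397835 to 61397900 on the minus strand, in an intron of Ppargc1b on the same strand. An annotated microRNA gene, Gm25301, overlaps it on the plus strand, and whether the counting used the strand is not given in the sources used here. Mir378b lies on chromosome 11 from 88352773 to 88352864, in an intron of Msi2 but on the opposite strand. Mir378c lies on chromosome 14 from 46954830 to 46954928, in an intron of Samd4, again on the opposite strand. Mir378d, on chromosome 10 from 126710282 to 126710391, is outside other annotated genes. Only miR-378a is thus placed in the sense of its host gene.

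The libraries held between 2619533 and 20268095 counts over the first row of each microRNA. Most of these were the erythrocyte microRNA miR-486, and between 139518 and 1130635 counts per library fell outside it. Levels are given in CPM, counts per 1000000 after scaling with TMM (edgeR's trimmed mean of M-values), whose factors ranged from 0.309 to 1.97. No pair of libraries had identical counts (0 pairs). Replicate 1 at 13.5 months stood apart with the lowest TMM factor. The 7 listed erythroid markers were all detected, though miR-486a-5p and miR-486b-5p among them had identical counts.

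The family is a minor but steadily detected part of blood. Its 5 members together made up between 0.106% and 0.378% of the reads outside miR-486, with a median of 0.221%. miR-378a-3p gave 31543 counts over the 37 libraries, 70.2% of the family's reads, and was the microRNA of rank 45 by mean level (94.5 CPM). miR-378c followed with 10784 counts, 24.0% of the family and rank 67 (32.3 CPM). miR-378d gave 1761 counts (3.92%, rank 125, 5.19 CPM). The 5p arm of miR-378a gave 662 counts (1.47%, rank 172, 1.87 CPM) and miR-378b 184 counts (0.409%, rank 264, 0.560 CPM). The order of the members therefore spans more than 100-fold in reads, with the 3p arm of miR-378a at the top and its own 5p arm near the bottom. Counting error follows this order. miR-378a-3p had 116 to 2398 counts per library and miR-378c 45 to 879, whereas miR-378d had 3 to 121, miR-378a-5p 2 to 58 and miR-378b 0 to 18. miR-378b was at 0 in 3 libraries, 1 at 12 months and 2 at 15 months, where 3 counts, the limit that a count of 0 allows, would be 0.729, 1.25 and 0.482 CPM. PCR copies cannot be told from molecules, so counts and limits cover counting error only. The filter of the study, over 100 reads in 50% of the libraries or more, was passed by 2 members (miR-378a-3p and miR-378c) among 87 microRNAs, and a lower filter of more than 1 read was passed by all 5 among 323.

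miR-378a-3p was at its highest at 13.5 months. At 12 months its level had a lowest value of 74.1, a median of 90.9 and a highest value of 106.7 CPM. At 13.5 months the lowest was 88.1, the median 106.9 and the highest 177 CPM. The 5 libraries at 15 months gave 94.4, 81.0, 71.8, 89.5 and 79.8 CPM. At 16.5 months the lowest was 67.8, the median 81.5 and the highest 93.6 CPM. The ages overlapped, with 6 of 12 libraries at 13.5 months above the highest at 12 months, 11 of 12 above its median, and 0 of 5 libraries at 15 months above the median of 13.5 months. Means were 88.9 ± 9.87 (SD, n = 9), 116 ± 29.5 (n = 12), 83.3 ± 8.82 (n = 5) and 80.1 ± 7.68 CPM (n = 11) from 12 to 16.5 months. In the order of these means, 13.5 months came first, and 12, 15 and 16.5 months followed with gaps between neighbours smaller than the SD of each.

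Replicates 4 and 5 at 13.5 months carried much of that peak. They had 176 and 177 CPM of miR-378a-3p, and the highest of the other 10 libraries of this age had 120 CPM (replicate 3). They also had the highest levels of miR-378c, at 57.5 and 65.0 CPM. Their depth outside miR-486 differed, at 211698 and 908905 counts, ranks 5 and 33 of 37 from the lowest, so the pair has no common depth. Scaled per 1000000 reads outside miR-486 instead, they were again the highest, at 2395 and 2638 of miR-378a-3p, while replicate 1 of this age fell to 730, under the lowest 12-month library (1440). On this scale the means were 1572 ± 120 (SD, n = 9), 1935 ± 498.99 (n = 12), 1516 ± 139 (n = 5) and 1363 ± 177 (n = 11) reads per 1000000 from 12 to 16.5 months.

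miR-378c ran close to miR-378a-3p. At 12 months its level had a lowest value of 24.99, a median of 31.3 and a highest value of 34.2 CPM. At 13.5 months the lowest was 30.4, the median 38.8 and the highest 65.0 CPM. The 5 libraries at 15 months gave 29.96, 28.05, 25.6, 31.7 and 29.8 CPM. At 16.5 months the lowest was 22.5, the median 25.6 and the highest 28.3 CPM. At 13.5 months, 9 of 12 libraries exceeded every 12-month library and 11 of 12 exceeded the 12-month median. Means were 30.5 ± 3.10 (SD, n = 9), 41.3 ± 10.3 (n = 12), 29.02 ± 2.33 (n = 5) and 25.5 ± 1.62 CPM (n = 11). The gap between 12 and 15 months was smaller than either SD, and that between 15 and 16.5 months, 5 of 11 libraries at 16.5 months lying under the lowest at 15 months, was larger than both. The ranges at 13.5 and 16.5 months did not overlap in CPM for this member, 1 of the 2 members over the filter, against 6.90% of the 87 microRNAs. Per 1000000 reads outside miR-486 they did overlap, from 283 to 967 and from 341 to 483, because of replicate 1 at 13.5 months.

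**Figure D1:**
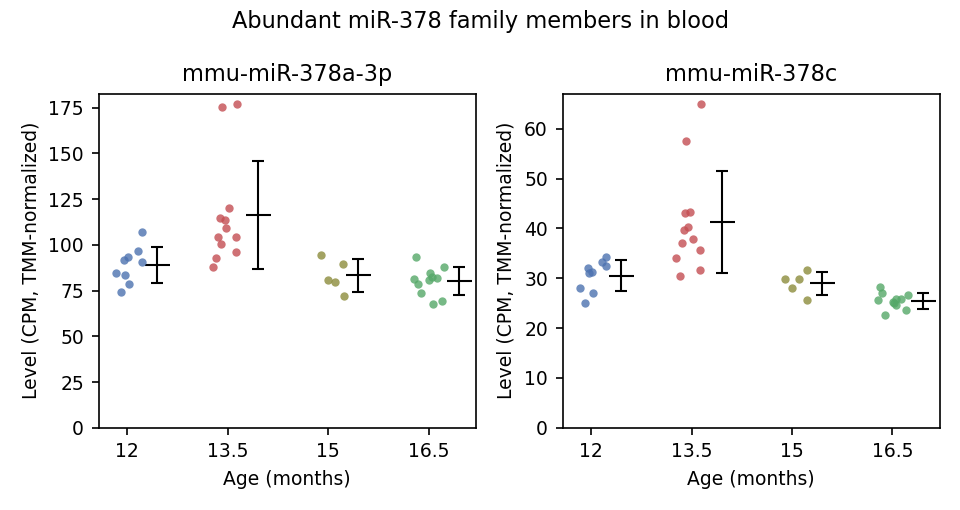
Level of miR-378a-3p (left) and miR-378c (right) in CPM on the y axis against age in months on the x axis, each point 1 library, with the mean and SD as bars at the side (n = 9, 12, 5 and 11). Both members have their highest mean at 13.5 months (116 and 41.3 CPM), where 2 libraries stand above the other 10.

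The low-count members repeated this only in part. miR-378d had 4.91 ± 1.33 (SD, n = 9), 6.24 ± 1.95 (n = 12), 4.91 ± 0.924 (n = 5) and 4.40 ± 0.513 CPM (n = 11), and its values ran from 3.05 to 7.40, from 2.28 to 8.94, from 3.33 to 5.53 and from 3.60 to 4.98 CPM. Its highest mean was at 13.5 months, although the lowest value of all ages was also there, from 3 counts in replicate 1. miR-378a-5p, from the same hairpin as miR-378a-3p, had 1.86 ± 1.13, 1.72 ± 0.685, 2.30 ± 0.888 and 1.86 ± 0.749 CPM from 12 to 16.5 months, with n as before. Its 5 libraries at 15 months gave 1.25, 3.19, 1.45, 2.74 and 2.88 CPM. The mean at 13.5 months was the lowest of the 4, and all neighbouring means lay within the SDs. miR-378b had 0.696 ± 0.5261, 0.830 ± 0.538, 0.369 ± 0.377 and 0.240 ± 0.0894 CPM, and at 16.5 months its highest library reached 0.370 CPM and no library had more than 6 counts. All ages overlapped for each of these members, and levels of miR-378b at 15 and 16.5 months rest on 0 to 9 counts per library.

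**Figure D2:**
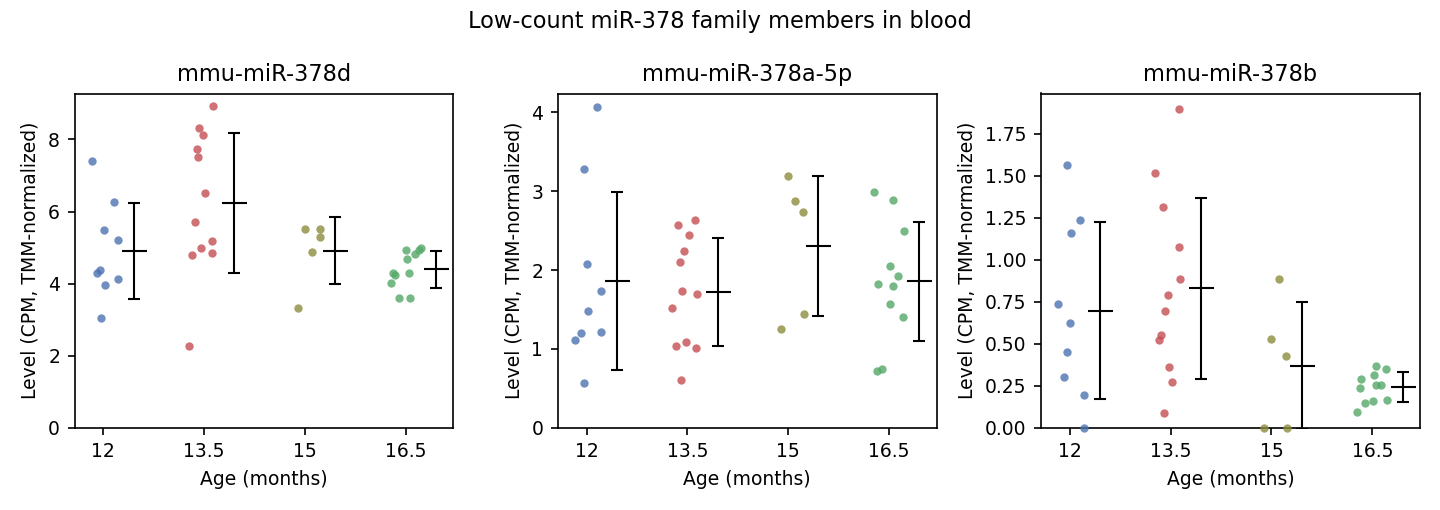
Level of miR-378d, miR-378a-5p and miR-378b in CPM on the y axis against age in months on the x axis, each point 1 library, with the mean and SD as bars, drawn down to 0 at most (n = 9, 12, 5 and 11). miR-378d has its highest mean at 13.5 months (6.24 CPM), miR-378a-5p has its highest at 15 months (2.30 CPM), and miR-378b has its lowest at 16.5 months (0.240 CPM).

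The fit of all 37 libraries expressed the same levels as differences between ages. At 13.5 against 12 months, the log2 fold change of miR-378a-3p was 0.39 (SE 0.11), a level 1.31 times as high, and that of miR-378c was 0.44 (SE 0.11). At 15 against 13.5 months they were -0.48 (SE 0.14) and -0.51 (SE 0.13). The 13.5-month libraries enter both intervals, once as the older and once as the younger age, so the opposite directions are not separate observations. Their signs held under each of the 51 alternative settings, which all reuse these libraries and so are not separate observations. With libraries scaled by total count only, they were 0.18 (SE 0.25) and 0.22 (SE 0.23) in the former interval. In the latter they were then -0.97 (SE 0.31) and -0.96 (SE 0.29). For 16.5 against 15 months the values with TMM were -0.055 (SE 0.14) and -0.19 (SE 0.13), where the sign was kept in 32 and 36 of the 51 settings. Over the whole span, 16.5 against 12 months, they were -0.15 (SE 0.11) and -0.26 (SE 0.11), and the former was positive in 13 of 51 settings, at most 0.055.

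How the libraries were scaled moved all microRNAs together, so the members were also set against the median of the 87. With TMM that median was 0.11 at 13.5 against 12 months and 0.077 at 15 against 13.5 months. Scaling by the total count alone moved it by -0.19 and -0.50, and by the counts outside miR-486 by -0.12 and 0.13. Relative to the median, miR-378a-3p stood at 0.28 and miR-378c at 0.33 in the former interval, with 0.25 to 0.31 and 0.30 to 0.37 over 6 scalings and tools. In the latter they stood at -0.56 and -0.59, with -0.57 to -0.53 and -0.59 to -0.54. Subtracting the median cancels any shift common to all microRNAs, so these narrow ranges do not test the scaling. The distance of the pair from the other microRNAs did depend on the high libraries. Without replicates 4 and 5 at 13.5 months it was 0.095 and 0.15 in the former interval and -0.34 and -0.38 in the latter. The log2 fold changes themselves were then 0.23 (SE 0.0821) and 0.29 (SE 0.0787), and -0.33 (SE 0.0990) and -0.36 (SE 0.0950).

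Among the low-count members, fitted with the lower filter, miR-378d had log2 fold changes of 0.51 (SE 0.18), -0.45 (SE 0.22), -0.17 (SE 0.22) and -0.10 (SE 0.18) in the same 4 intervals. For miR-378a-5p they were -0.0089 (SE 0.30), 0.38 (SE 0.35), -0.31 (SE 0.35) and 0.064 (SE 0.31), each with a 95% interval that includes 0. At 13.5 against 12 months this interval ran from -0.59 to 0.57, wide enough to hold the value of the 3p arm. miR-378b had 0.31 (SE 0.42), -0.95 (SE 0.53), -0.81 (SE 0.57) and -1.45 (SE 0.47). The fit with the lower filter has its own TMM factors, so its values are not on the scale of the other fit. At 13.5 against 12 months it gave miR-378a-3p 0.51 (SE 0.13) and miR-378c 0.56 (SE 0.13). At 15 against 13.5 months it gave them -0.61 (SE 0.16) and -0.63 (SE 0.16), beside -0.45 for miR-378d.

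**Figure D3:**
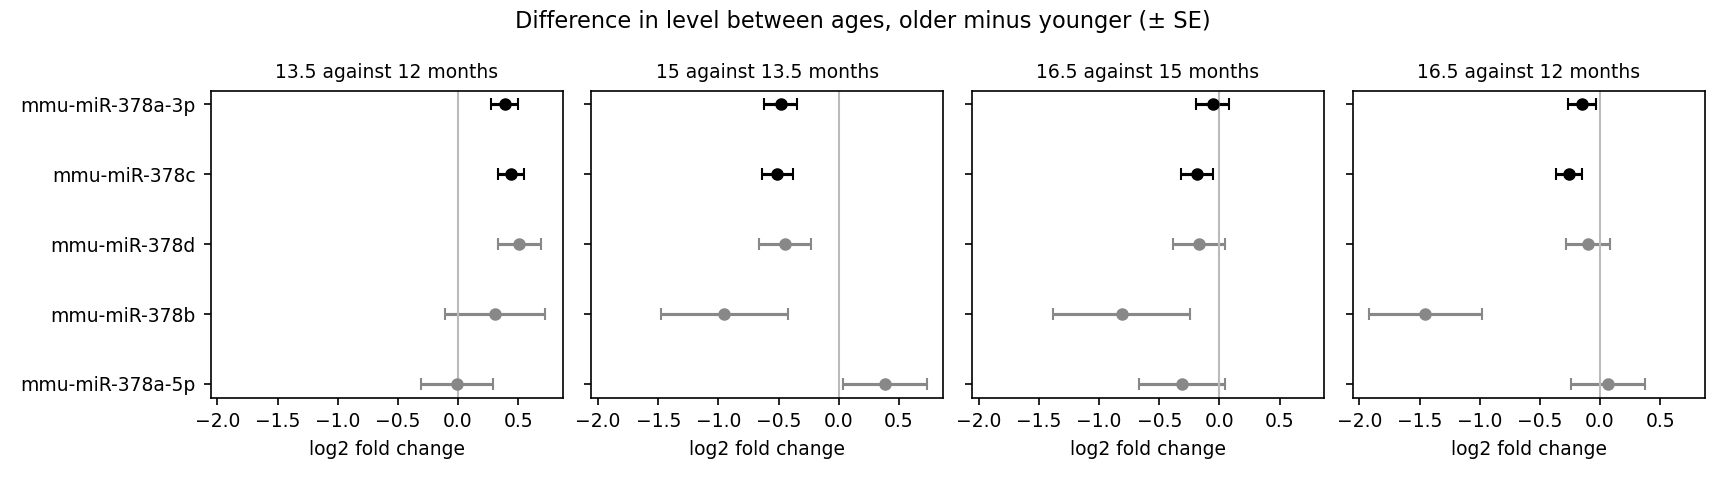
Log2 fold change on the x axis, older minus younger age, with its SE as bars, for the 5 members on the y axis in 4 intervals; black points come from the fit of 87 microRNAs and grey points from the fit of 323. miR-378a-3p, miR-378c and miR-378d lie at 0.39 to 0.51 for 13.5 against 12 months and at -0.51 to -0.45 for 15 against 13.5 months, while miR-378a-5p lies at -0.0089 and 0.38. The fits differ in their TMM factors, so black and grey points are not on one scale.

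Counts of calls are given only against the background of all microRNAs, since the family was proposed with them in view, and nothing is read from them. In edgeR's quasi-likelihood test with Benjamini-Hochberg adjustment at 0.05, 2 of 2 members passed over the 4 ages, where 58.6% of the 87 microRNAs did. At 13.5 against 12 months it was 2 of 2 (43.7% of all), at 15 against 13.5 months 2 of 2 (39.1%), at 16.5 against 15 months 0 of 2 (3.45%) and at 16.5 against 12 months 0 of 2 (19.5%). With the lower filter, 4 of 5 members passed over the ages, all but miR-378a-5p, against 32.2% of the 323 microRNAs. By interval it was 3 of 5 (21.7% of all) at 13.5 against 12 months, 2 of 5 (9.91%) at 15 against 13.5 months, 0 of 5 (0.310%) at 16.5 against 15 months, and 1 of 5, miR-378b, at 16.5 against 12 months (14.2%). The calls at 13.5 against 12 months fell to 0 of 2 with libraries scaled by total count only and to 1 of 2 with the counts outside miR-486 as library size, and those at 15 against 13.5 months to 0 of 2 with the latter. Without any filter both intervals had 0 of 2. Without replicates 4 and 5 at 13.5 months these intervals again had 2 of 2, and at 16.5 against 12 months 1 of 2, miR-378c. That call was also made without replicate 5 alone or without replicate 12 at 13.5 months.

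Counts taken within a library need no scaling between libraries. miR-378c had 34.2% of the counts of miR-378a-3p in the median library, and between 29.6% and 42.8% over all 37. By age its count was 34.4% ± 1.51 (SD, n = 9), 35.6% ± 3.32 (n = 12), 34.9% ± 2.06 (n = 5) and 32.0% ± 2.63 (n = 11) of that of miR-378a-3p. The variance of this share over libraries was 1.65 times what counting alone gives. miR-378d, at a median of 5.41% and between 2.59% and 8.73%, varied 1.32 times as much as counting gives. The ranges of all ages overlapped for miR-378c. The part of shared reads in these proportions was not tested.

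The opposite arm, miR-378a-5p, had 2.05% ± 1.14 (SD, n = 9), 1.53% ± 0.687 (n = 12), 2.79% ± 1.10 (n = 5) and 2.32% ± 0.890 (n = 11) of the counts of miR-378a-3p, and its share over all libraries ran from 0.601% to 4.20%. The variance was 4.09 times that of counting. Its mean share was lowest at 13.5 months, the age at which the 3p arm was highest, but the ranges of all ages overlapped. miR-378b had 0% to 1.97%, with a variance 2.91 times that of counting and means of 0.791%, 0.766%, 0.449% and 0.304% from 12 to 16.5 months.

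**Figure D4:**
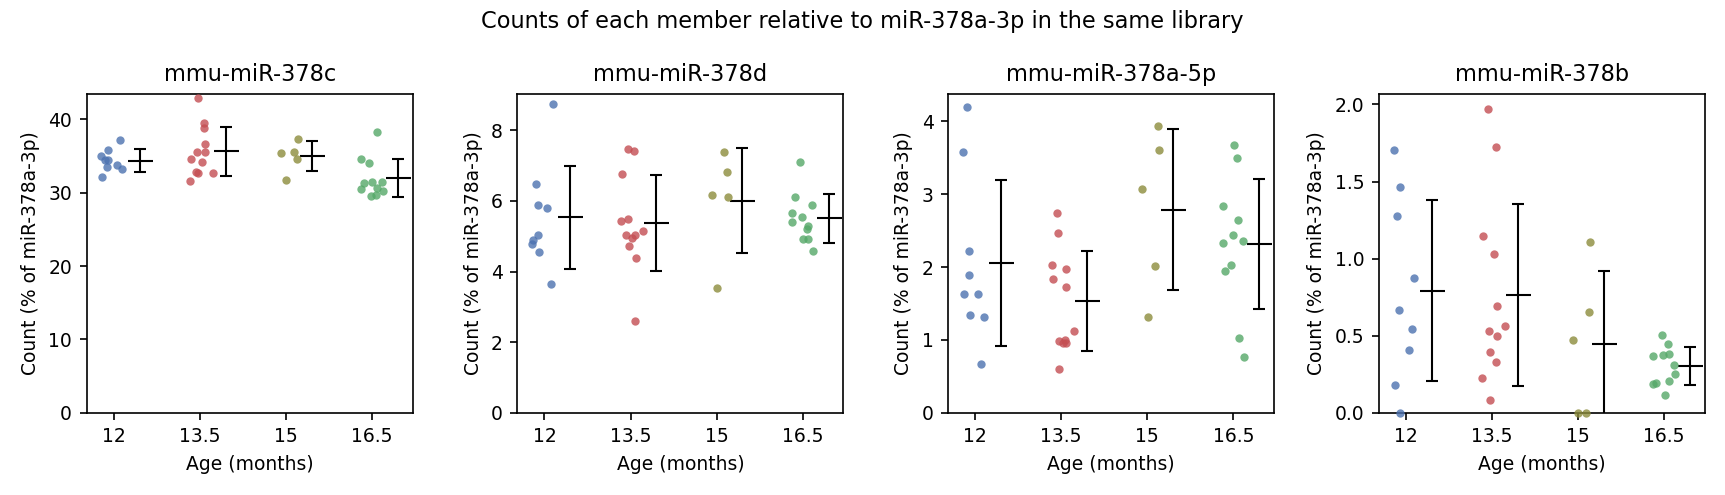
Count of each member as a percentage of the miR-378a-3p count of the same library on the y axis, against age in months on the x axis, each point 1 library, with the mean and SD as bars, drawn down to 0 at most (n = 9, 12, 5 and 11). miR-378c stays between 29.6% and 42.8%, and miR-378a-5p spreads from 0.601% to 4.20%.

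Levels were also compared across libraries. Over 37 libraries, in log2(CPM + 1), Pearson's r with miR-378a-3p was 0.94 for miR-378c, 0.64 for miR-378d, 0.29 for miR-378b and 0.053 for miR-378a-5p. After the age means were removed it was 0.88, 0.52, -0.092 and 0.19. These are descriptions across libraries that share their scaling and depth, and low counts lower such values for the rarer members. Reads that fit more than 1 member would raise the r between them, and the part of such reads in these values was not tested.

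Outside the family, the microRNAs whose levels were most like miR-378a-3p were let-7i-5p (r = 0.86, Spearman's rho = 0.77), let-7j (0.81, 0.77), miR-107-3p (0.79, 0.73), miR-103-3p (0.77, 0.70) and miR-181a-5p (0.74, 0.57), all over the same 37 libraries. miR-103-3p and miR-107-3p share a seed and are known for lowering insulin sensitivity. miR-181a-5p is known from lymphocyte development. Without the 2 libraries farthest from the median level of miR-378a-3p, the r values of the 5 were 0.78, 0.71, 0.66, 0.61 and 0.61, and within ages they were 0.73, 0.63, 0.63, 0.77 and 0.51. The median r of the remaining 80 microRNAs was -0.068. let-7i-5p had 235 ± 43.6 (SD, n = 9), 408 ± 131 (n = 12), 175 ± 24.7 (n = 5) and 192.8 ± 23.6 CPM (n = 11) from 12 to 16.5 months, the same age as the family at its peak. miR-107-3p had 70.9 ± 11.48, 89.0 ± 30.9, 53.6 ± 8.43 and 47.1 ± 5.51 CPM, with its highest library at 175 CPM.

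**Figure D5:**
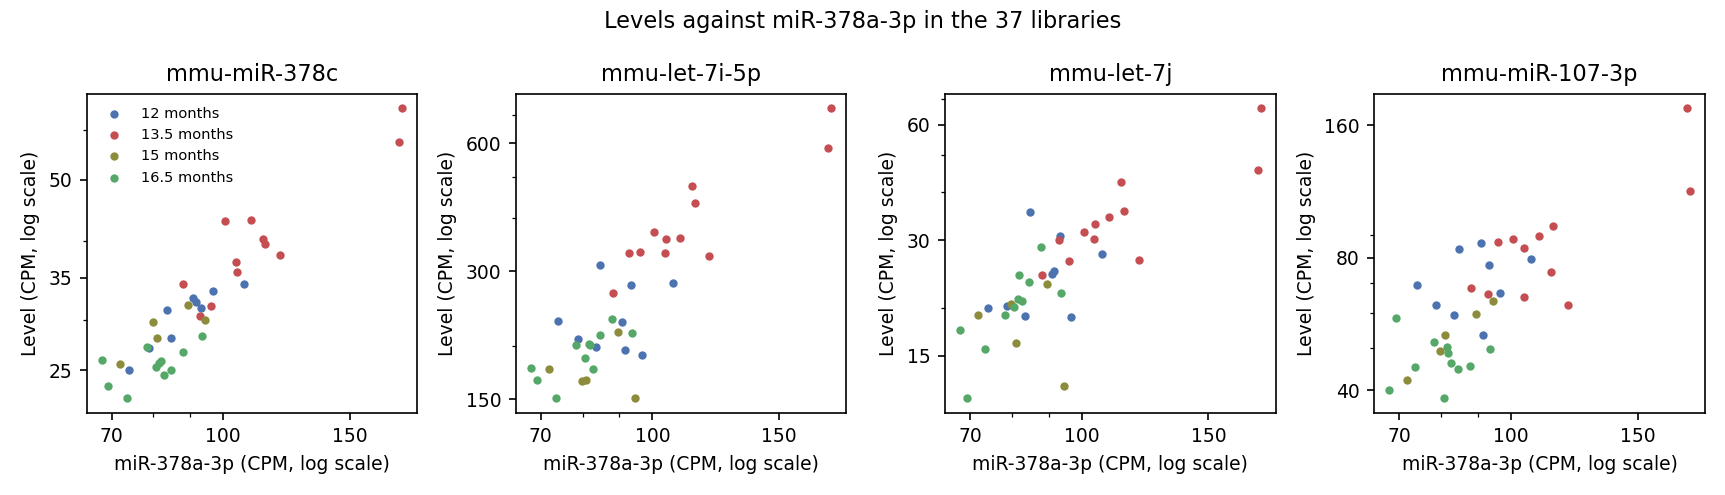
Level of miR-378c, let-7i-5p, let-7j and miR-107-3p in CPM on the y axis against miR-378a-3p in CPM on the x axis, both on log scales, each point 1 of 37 libraries coloured by age. Points rise together in each panel (r = 0.94, 0.86, 0.81 and 0.79), and the 2 libraries at 176 and 177 CPM of miR-378a-3p lie at the upper right.

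Other microRNAs of energy metabolism were examined from lists of microRNAs known in muscle, in brown and beige fat, and in lipid and glucose handling, 36 in all. Of these, 12 passed the filter of 100 reads and 8 of the 12 changed over the ages in edgeR's test, beside 58.6% of all 87. At 13.5 against 12 months 1 was higher and 4 were lower, with a median log2 fold change of -0.17 beside 0.11 for all 87. Of the brown and beige fat microRNAs 5 of 14 were tested and 4 changed over the ages, of the lipid and glucose microRNAs 7 of 15 and 4, and of the 7 muscle microRNAs none was tested (0 of 7), 3 having no read in any library.

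The listed microRNAs named next were picked for the smallest p-values in these same libraries, from lists chosen with earlier results known. Their p-values are therefore a description of that choice and not a separate test. miR-30c-5p, of the brown and beige fat list, went the opposite way from miR-378a-3p and miR-378c in its mean levels. It had 966 ± 230 (SD, n = 9), 529 ± 119 (n = 12), 910 ± 132.8 (n = 5) and 1210 ± 186 CPM (n = 11), an adjusted p of 2.2e-08 over the ages and a log2 fold change of -0.87 (SE 0.13) at 13.5 against 12 months (edgeR). miR-30b-5p, its seed relative, fell by 1.78 (SE 0.23) on the log2 scale in this interval (edgeR, adjusted p = 4.1e-07). miR-26a-5p of the lipid and glucose list fell by 0.46 (SE 0.13; edgeR, adjusted p = 0.0039). miR-107-3p and miR-103-3p, of the same list, had log2 fold changes of 0.33 (SE 0.14; edgeR, adjusted p = 0.055) and 0.032 (SE 0.12; adjusted p = 0.85) in this interval. At 15 against 13.5 months they fell by 0.73 (SE 0.18) and 0.62 (SE 0.16), with edgeR adjusted p-values of 0.0016 and 0.0023. miR-93-5p had a log2 fold change of -0.18 (SE 0.19; edgeR, adjusted p = 0.43) at 13.5 against 12 months and fell by 0.62 (SE 0.24; adjusted p = 0.033) after it.

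Markers of muscle and liver, tissues in which miR-378a is known to be abundant, differed in level. Of 7 muscle markers, miR-1a-3p, miR-208a-3p and miR-208b-3p were at 0 in all libraries. The summed level of the list was 9.50 ± 8.72 (SD, n = 9), 4.49 ± 3.93 (n = 12), 3.97 ± 3.004 (n = 5) and 2.57 ± 1.59 CPM (n = 11), highest at 12 months. This sum was nearly all miR-133a-3p (mean 8.80 CPM at 12 months). Of the 3 liver markers, miR-122-5p, the defining one, had 13 counts in all, and the summed level, nearly all miR-192-5p, was 710, 440, 798 and 519 CPM from 12 to 16.5 months. Blood cell markers moved with age as well. The summed level of 4 lymphoid markers ran from 193.4 to 830 CPM at 12 months, 235 to 755 at 13.5 months, 220 to 641 at 15 months and 256 to 715 at 16.5 months, with its highest mean (453 CPM) at 13.5 months. Among them, miR-181a-5p and miR-146a-5p had their highest means at that age (184 and 44.5 CPM), whereas miR-150-5p, the most abundant, had 224 CPM there and its highest mean (266 CPM) at 16.5 months, as did miR-155-5p (1.30 CPM). That of 2 myeloid markers was lowest at this age, with 5.31 to 28.7 CPM beside 14.9 to 55.9 CPM at 12 months. The 4 platelet and endothelial markers summed to at most 6.27 CPM in any library, and the 7 erythroid markers did not share an age of highest mean. miR-486a-5p and miR-486b-5p, whose counts were identical and which make up nearly all of the erythroid sum, were highest at 15 months, as was miR-144-5p. miR-451a, miR-144-3p and miR-16-5p were highest at 12 months, and miR-92a-3p at 13.5 months. miR-451a had 7533 CPM at 12 months and its lowest mean, 2770 CPM, at 13.5 months. The part of these shifts in the levels of the family was not tested, and in whole blood fewer cells of a type and less RNA per cell cannot be told apart.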

How the data were processed

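Whole blood RNA was made into TruSeq small RNA libraries and sequenced as 50 bp single-end reads. The authors trimmed adapters with cutadapt, checked reads with FastQC 0.11.5, and mapped and counted with miRDeep2 (mm10 genome, miRBase hairpins, no mismatch). The authors deposited whole-number counts without normalization (2241 rows for 1915 microRNAs) and a table of 337 microRNAs whose normalized signal is the count times 1 factor per library. No column was left out (0). Of repeated rows the first was taken. From the counts, edgeR 4.0.16 (R 4.3.3) fitted age in all 37 libraries with TMM factors of the 87 microRNAs over 100 reads in 50% of libraries, and of 323 over 1 read, with quasi-likelihood tests and Benjamini-Hochberg adjustment. Standard errors come from the F statistics, and 95% intervals are 1.96 SE wide to each side. DESeq2 1.42.0 and limma 3.58.1 served as alternatives. The edgeR and DESeq2 tests were tried on simulated counts, and the limma fit was not. The biological coefficient of variation was 0.405. Ages and replicate numbers come from the labels. Named microRNAs are all members, the 5 non-members of highest r with miR-378a-3p, and up to 6 listed metabolic microRNAs of smallest p. Members and lists were chosen with earlier results of these data known. Precursor positions come from the GRCm38 annotation and mature sequences from RefSeq (GRCm38.p6).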

Additional observations from a re-analysis of the deposited data

How the results depend on the processing

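The count of microRNAs that changed over the 4 ages was 51, and 32 with libraries scaled by total count only and 104 with the filter of more than 1 read. At 13.5 against 12 months the count of 38 became 10 and 70 under these settings. At 15 against 13.5 months the count of 34 became 22 with total count only, 18 with no filter, 52 with 2 RUVs factors (estimated hidden factors) and 20 with counts outside miR-486 as library size, a setting chosen after seeing the data, like leaving out replicates 4 and 5 at 13.5 months. At 16.5 against 15 months the count of 3 became 0 with total count only (13 with an unadjusted p under 0.05, edgeR; DESeq2 gave 4), 1 with the lower filter, no filter, or counts outside miR-486, 6 and 15 with 1 and 2 RUVs factors, and 0 to 7 over TMM reference libraries. At 16.5 against 12 months the count of 17 became 6 with total count only, 46 with the lower filter and 28 with 1 or 2 RUVs factors. Leaving out each library in turn gave 49 to 58, 32 to 47, 27 to 37, 1 to 8 and 13 to 24 in this order. At 13.5 against 12 months 18 were higher and 20 lower, but 2 and 8 with total count only and 10 and 19 with counts outside miR-486; at 15 against 13.5 months the split was 14 and 20, but 0 and 22, and 12 and 8; at 16.5 against 12 months it was 5 and 12, but 0 and 6 with total count only and 9 and 12 with the authors' normalized table.

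With total count only, the log2 fold changes of miR-378a-3p were 0.18, -0.97, 0.29 and -0.50 in the 4 intervals in this order, and those of miR-378c 0.22, -0.96, 0.14 and -0.60. Over TMM reference libraries miR-378a-3p reached 0.64, -0.73 and 0.18, and miR-378c reached 0.68, -0.75, 0.049 and -0.051. Leaving out each library gave 0.32 to 0.66, -0.78 to -0.41, -0.063 to 0.23 and -0.20 to 0.055 for miR-378a-3p, and 0.36 to 0.68, -0.79 to -0.43, -0.20 to 0.077 and -0.31 to -0.047 for miR-378c. The cause of these moves was not tested. Relative to the median of all microRNAs these leave-outs gave miR-378a-3p 0.20 (without 13.5 months replicate 4) to 0.38 (without 13.5 months replicate 1) at 13.5 against 12 months. For miR-378c they gave 0.25 (without 13.5 months replicate 5) to 0.41 (without 13.5 months replicate 1).

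Same-numbered libraries had a mean correlation of -0.035 over 44 pairs, above 0.1 in 45.5%, and 1 of 36 libraries correlated best with its own number, so the numbers were not used to pair libraries. Whether equal numbers mark the same mouse is not given in the labels. Blocked on the replicate number, the counts were 56, 43, 38, 1 and 24, and the log2 fold changes of miR-378a-3p were 0.42, -0.56, 0.019 and -0.13. The block changed no call of a member.

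No library was far enough from its age group to pass Dixon's limit in the 18 groups examined. Dixon's limit looks at the gap beside an extreme library, so high libraries lying close together can hide each other. Replicates 4 and 5 at 13.5 months lay this close (176 and 177 CPM of miR-378a-3p), so the check cannot clear them. Depth limits miR-378b and miR-378a-5p most, with medians of 3 and 15 counts.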
